A study of Mus musculus with 2 samples.

Results

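The 10 genes described here encode proteins by which leukocytes attach to and cross the vessel wall: the endothelial selectins Sele and Selp, the selectin ligand Selplg, the immunoglobulin-family counter-receptors Icam1 and Vcam1, and the integrin chains Itgam, Itgax, Itgal, Itgb2 and Itga4. They were chosen by symbol as a textbook set, and all 10 were found among the 33696 genes that both files list. The files identify the selectins and their ligand as ENSMUSG00000026582 (Sele), ENSMUSG00000026580 (Selp) and ENSMUSG00000048163 (Selplg), and the counter-receptors as ENSMUSG00000037405 (Icam1) and ENSMUSG00000027962 (Vcam1). The integrin chains are ENSMUSG00000030786 (Itgam), ENSMUSG00000030789 (Itgax), ENSMUSG00000030830 (Itgal), ENSMUSG00000000290 (Itgb2) and ENSMUSG00000027009 (Itga4). Raw unique molecular identifier (UMI) counts were read for each gene in single cells of ulcerated mouse skin and summed per library and cell class. The study held 2 libraries. The first, labelled TG, came from a mouse sample with whole-body Has2 overexpression, Has2 being an enzyme that makes hyaluronan. The second, labelled WT, came from a wild-type sample. Both came from lesions labelled as ulcerative dermatitis after 15 days of daily tape stripping, at 40 to 50 strips a day, which stands for scratching. The labels give neither the promoter of the transgene nor the number, age or sex of the mice.

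A leukocyte leaves the blood in steps. Selectins on activated endothelium and their sugar-bearing ligands first slow the cell into rolling. Chemokine signals then switch leukocyte integrins to their binding form, and these hold the cell to Icam1 or Vcam1 before it crosses the wall. Itgb2 is the shared beta chain that pairs with Itgal (LFA-1), Itgam (Mac-1) or Itgax. Itga4 pairs with another beta chain to bind Vcam1. Inflamed skin is a tissue in which Sele is known to be induced on venules.

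The selectin and Icam1 genes are known targets of inflammatory transcription factors, so the DNA just before 3 of them is shown. The sequences are the 250 bases upstream of the gene start in RefSeq, build GRCm38.p6, which differs from the build used for counting, and the table held an entry for 6 of the 10 genes (Sele, Selp, Icam1, Itgam, Itgax and Itga4). All 3 lie on the plus strand and read 5′ to 3′. Capitals mark matches, on either strand, to an NF-kB-like pattern (GGNNNTTCC) or an AP-1-like pattern (TGANTCA), which do not overlap each other here.
Sele, chr1:164047984-164048233: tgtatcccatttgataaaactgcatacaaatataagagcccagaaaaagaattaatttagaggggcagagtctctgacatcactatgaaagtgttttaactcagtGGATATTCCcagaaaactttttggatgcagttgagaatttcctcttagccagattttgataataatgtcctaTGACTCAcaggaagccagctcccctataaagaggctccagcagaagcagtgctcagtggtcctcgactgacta
Selp, chr1:164115014-164115263: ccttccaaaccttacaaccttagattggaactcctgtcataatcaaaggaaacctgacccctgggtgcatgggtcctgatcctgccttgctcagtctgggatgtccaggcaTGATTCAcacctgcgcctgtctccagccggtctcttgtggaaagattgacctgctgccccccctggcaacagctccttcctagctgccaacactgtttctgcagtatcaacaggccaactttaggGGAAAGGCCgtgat
Icam1, chr9:21015690-21015939: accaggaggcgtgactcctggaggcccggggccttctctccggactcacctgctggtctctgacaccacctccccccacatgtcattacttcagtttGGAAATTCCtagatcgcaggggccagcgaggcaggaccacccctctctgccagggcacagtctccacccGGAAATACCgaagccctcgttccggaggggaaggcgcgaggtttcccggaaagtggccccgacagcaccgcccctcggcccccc
The Sele stretch holds an NF-kB-like match that starts at base -145 and an AP-1-like match at -73, counted from the gene start. Icam1 holds NF-kB-like matches at -153 and -84, and Selp holds one at -14 with an AP-1-like match at -139. An NF-kB-like match was present for 3 of the 6 listed genes and in 15.7% of the 32851 upstream stretches of the same length in the table. An AP-1-like match was present for 3 of the 6 (Sele, Selp and Itgax) and in 6.75% of the table. Such matches describe letters only and were not tested for binding.

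The TG-labelled library held 14622 cell barcodes and 134917708 UMIs, and the WT library 16999 barcodes and 143875454 UMIs. After filtering, 13562 and 15683 cells were kept, with median depths of 4177 and 4168 UMIs, and 79 barcode sequences occurred in both. Has2 stood at 86.8 CPM (a gene's UMIs over all UMIs of the cells, scaled as counts per 1e6) in all kept cells of the TG-labelled library, against 72.5 CPM in the WT library. It was lower in fibroblast-like cells of the TG-labelled library (149 against 187 CPM) and higher in neutrophil-like cells (3.77 against 0.437 CPM), so the label check was mixed and the library is called by its label throughout. Cells were clustered without the 10 genes and the other genes of their pathway, and clusters were named from marker genes, so every name means cells like that type. Keratinocyte-like cells numbered only 189 and 21, although the tissue is skin. With 1 library per genotype there is no spread between replicates: no test is given, genotype cannot be told apart from animal or preparation, and all intervals are 95% intervals for counting error.

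The levels of the 10 genes were first compared between cell classes within each library. The endothelial-like class held 281 and 325 cells, and all 8 of its markers were detected, at a summed 5310 and 5192 CPM. It had the highest level of Sele and of Selp among the 11 named classes. Sele, the selectin made on activated endothelium, reached 626 CPM in the TG-labelled library and 371 CPM in the WT library there. The next class with at least 50 UMIs of it was fibroblast-like, at 9.12 and 5.50 CPM. No Sele UMI was counted in T/NK-like cells, where 3 UMIs would have been 5.17 and 2.42 CPM. The share of neutrophil-like cells with a Sele UMI, 0.0925% and 0.0932%, gives the background in a class not known to make it, at median depths of 2058 and 3062 UMIs.

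Selp, kept in granules of endothelium and platelets, reached 2619 and 2458 CPM in endothelial-like cells. Elsewhere it was low, at 15.6 and 14.6 CPM in neutrophil-like cells and 21.1 and 14.3 CPM in dendritic-like cells. Markers of platelets, which also carry Selp, summed to 3.34 and 4.08 CPM in neutrophil-like cells, with 3 and 4 of the 8 at 0. Endothelial markers summed to 47.4 and 33.8 CPM in neutrophil-like cells and to 73.0 and 79.5 CPM in dendritic-like cells. The part of either source in these Selp counts was not tested.

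Icam1, the main counter-receptor of the beta2 integrins, was broad. It stood at 989 and 718 CPM in endothelial-like cells, then at 290 and 149 CPM in neutrophil-like cells and 226 and 180 CPM in fibroblast-like cells. The order of the neutrophil-like and fibroblast-like classes differed between the libraries: neutrophil-like was above fibroblast-like in the TG-labelled library and below it in the WT library. Pericyte-like (134 and 54.3 CPM), keratinocyte-like (105 and 131 CPM), dendritic-like (98.1 and 111 CPM), T/NK-like (92.99 and 114 CPM) and macrophage/monocyte-like cells (74.6 and 66.4 CPM) lay lower in both libraries, and the dendritic-like and T/NK-like intervals overlapped in each library.

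Vcam1, the counter-receptor of the Itga4 integrins, had a different top class. Its highest level, 1832 CPM in the TG-labelled library and 1738 CPM in the WT library, was in a small cluster of 62 and 107 cells. That cluster was led by Gpx3, Vcam1, Ccn2, Ncam1 and Des and carried 4 of 6 skeletal-muscle markers. Endothelial-like cells came next (329 and 161 CPM), then fibroblast-like cells (215 and 94.7 CPM). Of the leukocyte classes, macrophage/monocyte-like cells held 20.4 and 8.87 CPM and neutrophil-like cells 6.34 and 5.44 CPM. In dendritic-like cells all 25 Vcam1 UMIs of the TG-labelled library came from 1 cell.

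The ligand and the integrin chains were high in leukocyte classes. Selplg encodes PSGL-1, the chief ligand of P-selectin. It stood at 443 and 397 CPM in dendritic-like, 420 and 350 CPM in T/NK-like, 212 and 270 CPM in neutrophil-like and 76.0 and 76.6 CPM in macrophage/monocyte-like cells. Itgb2 was highest in neutrophil-like (524 and 566 CPM) and macrophage/monocyte-like cells (471 and 467 CPM). Each beta2 alpha chain had its own top class in the WT library: Itgam in neutrophil-like cells at 1007 CPM, Itgax in dendritic-like cells at 130 CPM and Itgal in T/NK-like cells at 255 CPM. In the TG-labelled library the same held for Itgam (578 CPM) and Itgal (203 CPM), but Itgax was highest in neutrophil-like cells, at 165 CPM against 102 CPM in its dendritic-like cells. Itga4 was highest in dendritic-like cells, at 176 and 212 CPM.

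**Figure D1:**
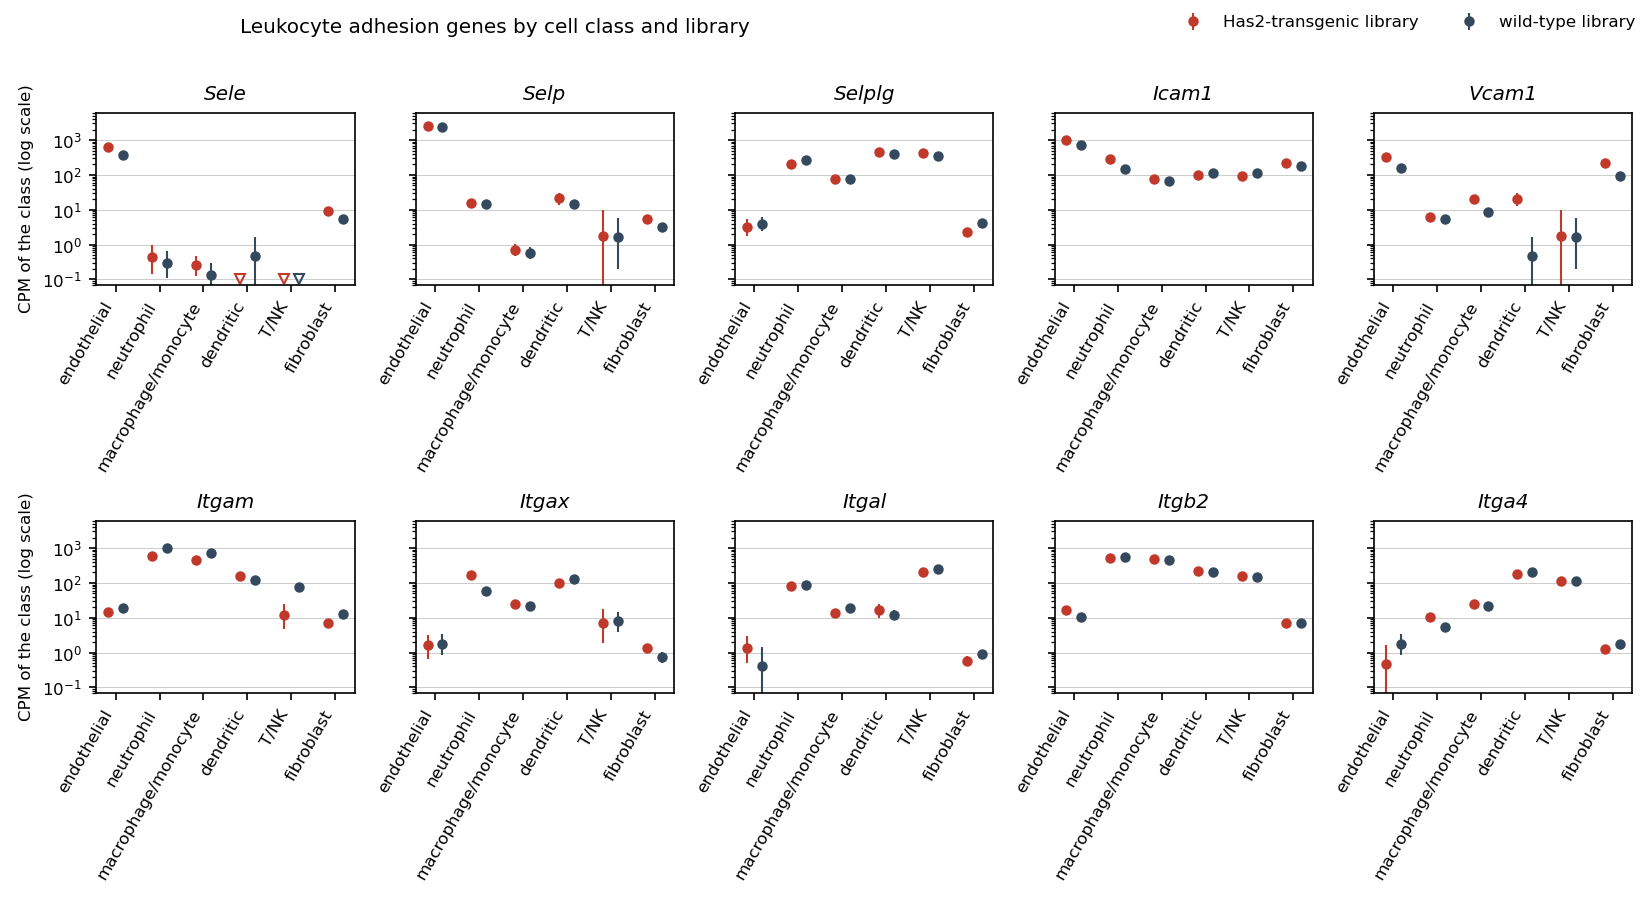
Level of each of the 10 genes (CPM of the class, log scale) in 6 cell classes, red for the TG-labelled (Has2-transgenic) library at left and dark for the WT library at right. Bars are exact Poisson 95% intervals for counting error, and open triangles at the foot mark classes with no UMI. Sele and Selp stand highest in endothelial-like cells, and Itgam in neutrophil-like cells, in both libraries.

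Ratios of CPM, the TG-labelled library over the WT library, were then taken in the 6 classes with at least 100 cells in each library. A gene counted as measured with at least 50 UMIs over both libraries, and as past the threshold with a ratio of at least 1.5 or at most 0.667. Of 48 measured pairs of gene and class, 17 were past it. In endothelial-like cells 3 of 6 measured genes were higher (Sele, Vcam1 and Itgb2), where 12.9% of all 9800 measured genes were. None of the 6 was lower, where 5.96% of all genes were. In neutrophil-like cells 3 of 9 were higher (Icam1, Itgax and Itga4) beside 13.4% of all genes, and 1 of 9 was lower (Itgam) beside 11.2%. In macrophage/monocyte-like cells 1 of 9 was higher (Vcam1) beside 16.2%, and 1 of 9 lower (Itgam) beside 4.57%. Such shares rest on few genes and say nothing particular about the set.

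In fibroblast-like cells 4 of 10 were higher (Sele, Selp, Vcam1 and Itgax) beside 15.1% of all genes, and 3 of 10 lower (Selplg, Itgam and Itgal) beside 8.47%. These class ratios depended on which clusters were compared and on their make-up. Cluster make-up was made the same in both libraries over the 3 fibroblast-like clusters with at least 50 cells of each. That left out clusters 15 and 18, with 952 and 674 cells of the TG-labelled library. Selp, Vcam1, Selplg, Itgam and Itgal then changed sides of 1 (0.260, 0.638, 1.09, 1.06 and 1.37). Sele and Itgax stayed above 1 (2.33 and 3.46). Several of these values rest on few UMIs. Cluster 7 held 1 and 13 UMIs of Selp, 6 and 12 of Selplg, 3 and 2 of Itgax and 2 and 4 of Itgal. Selplg was above 1 only in that cluster, and was 0.557 in cluster 21 and 0.693 in cluster 22. The Itgal intervals held 1 in all 3 clusters. Dendritic-like cells had none of 8 past the threshold in either direction, beside 6.28% higher and 9.44% lower. T/NK-like cells had none of 6 higher beside 6.84%, and 1 of 6 lower (Itgam) beside 9.73%. The median log2 ratio of the measured genes was 0.53 in endothelial-like cells, where that of all genes was 0.02. In the other classes it was 0.10 and -0.01 (neutrophil-like), 0.17 and 0.09 (macrophage/monocyte-like), 0.13 and -0.04 (dendritic-like), -0.13 and -0.02 (T/NK-like) and 0.17 and -0.05 (fibroblast-like), for the measured genes and for all genes.

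**Figure D2:**
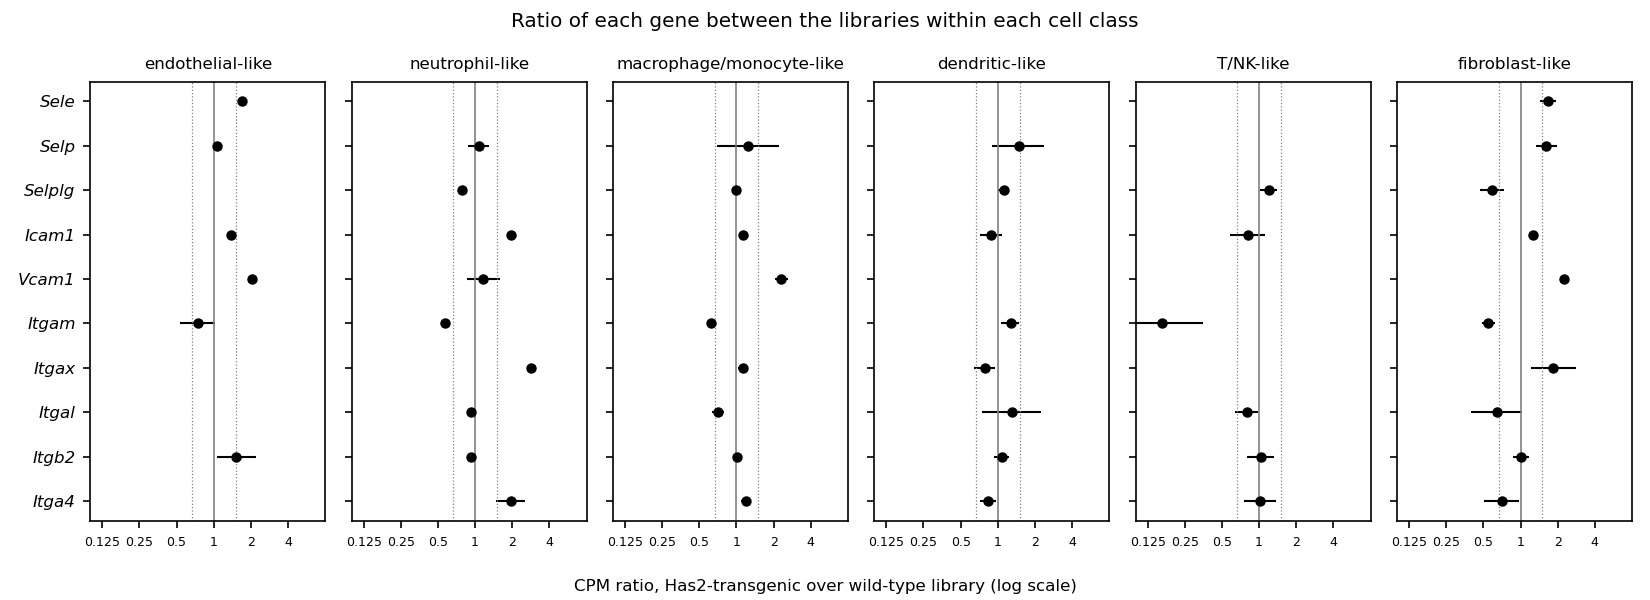
CPM ratio of each gene, TG-labelled (Has2-transgenic) over WT library (log axis), by cell class, with exact 95% intervals for counting error. The solid line marks a ratio of 1 and dotted lines the 1.5-fold thresholds, and genes with under 50 UMIs in a class are not drawn. Itgam lies left of 1 in neutrophil-like and macrophage/monocyte-like cells (0.574 and 0.624), and Itgax lies right of it in neutrophil-like cells (2.86).

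The vessel-wall genes were next set out cell by cell in the endothelial-like class. The 4 endothelial genes were each higher in the TG-labelled library, by 2.05-fold for Vcam1 (interval 1.88 to 2.24), 1.68-fold for Sele (1.59 to 1.79), 1.38-fold for Icam1 (1.32 to 1.44) and 1.07-fold for Selp (1.04 to 1.09). Without doublet removal Vcam1 stood at 1.44, under the threshold. The 2 libraries differed in the make-up of this class. Lymphatic markers summed to 1593 CPM in the TG-labelled library and 41.6 CPM in the WT library, all 5 of 5 being higher, and 27 against 2 cells carried at least 3 of them. Fibroblast markers summed to 377 and 85.5 CPM there (6 of 8 higher, none at 0). Erythroid markers summed to 1102 and 10.8 CPM, and 1 cell held 4524 of the 4805 erythroid UMIs of the TG-labelled library. The part of the fibroblast and erythroid markers in the ratios was not tested.

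Without the cells that carried lymphatic markers, the ratios were larger: 2.30 for Vcam1, 1.92 for Sele, 1.45 for Icam1 and 1.19 for Selp. The lymphatic-marker cells of the TG-labelled library had 32.7 CPM of Sele and 53.3 CPM of Vcam1, but 483 CPM of Selp and 610 CPM of Icam1. Depth also moved with the genes. The deepest endothelial-like cells weigh most in a summed level, and after each cell was thinned to 1000 UMIs the ratio was 3.67 for Sele, 2.15 for Selp, 2.79 for Vcam1 and 1.496 for Icam1. As a mean of per-cell CPM it was 3.01 for Sele and 2.10 for Selp. In thinned cells a Sele UMI was present in 25% of the TG-labelled library's endothelial-like cells, against 12.6% in the WT library. Unthinned, the shares were 44.1% and 27.4%, at median depths of 12063 and 8057 UMIs.

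Ackr1, a chemokine-binding receptor that marks venules, separated the cells that carried most Sele and Selp. It had a UMI in 79 of the 281 cells of the TG-labelled library and in 77 of the 325 cells of the WT library, and its level in the class was 787 and 784 CPM. Cells with an Ackr1 UMI had 1614 CPM of Sele in the TG-labelled library, against 608 CPM in the WT library, a ratio of 2.65 (2.49 to 2.83). Selp in these cells was 6482 against 4216 CPM, a ratio of 1.54 (1.496 to 1.58). Icam1 was 1593 against 813 CPM, and Vcam1 420 against 208 CPM. In cells without an Ackr1 UMI, Sele was far lower in both libraries, at 119 and 79.0 CPM, and Selp stood at 640 and 284 CPM. Thus Selp was higher in the TG-labelled library in cells with and in cells without an Ackr1 UMI, by more than the 1.07-fold of the whole class.

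That gate reads depth as well as cell type: cells with an Ackr1 UMI had a median of 16058 UMIs in the TG-labelled library and 31804 UMIs in the WT library, and cells without one had 10708 and 3801 UMIs. With cells thinned to 1000 UMIs before the gate, cells with an Ackr1 UMI (55 and 42) had 2527 and 810 CPM of Sele and 8236 and 4786 CPM of Selp. Their Icam1 stood at 1545 and 1286 CPM, with overlapping intervals (1234 to 1911 and 966 to 1678), so the Icam1 difference in these cells was not detectable at that depth. The same held for Vcam1, at 545 and 310 CPM (368 to 779 and 165 to 529). Of the other 4 venular genes, Vwf was 261 and 153 CPM in the class and Nr2f2 119 and 74.7 CPM, while Lrg1 and Ephb4 had ratios of 1.07 and 1.06. Among 6 capillary genes the ratio ran from 0.553 for Car4 to 3.86 for Rgcc, with Fabp4 at 0.996. Arterial genes ran from 0.691 for Gja5 to 2.99 for Bmx. The angiogenic genes Apln, Esm1, Angpt2 and Pgf were all higher, at 2.69, 3.85, 1.55 and 3.04. The part of such subsets in the adhesion ratios was not tested.

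**Figure D3:**
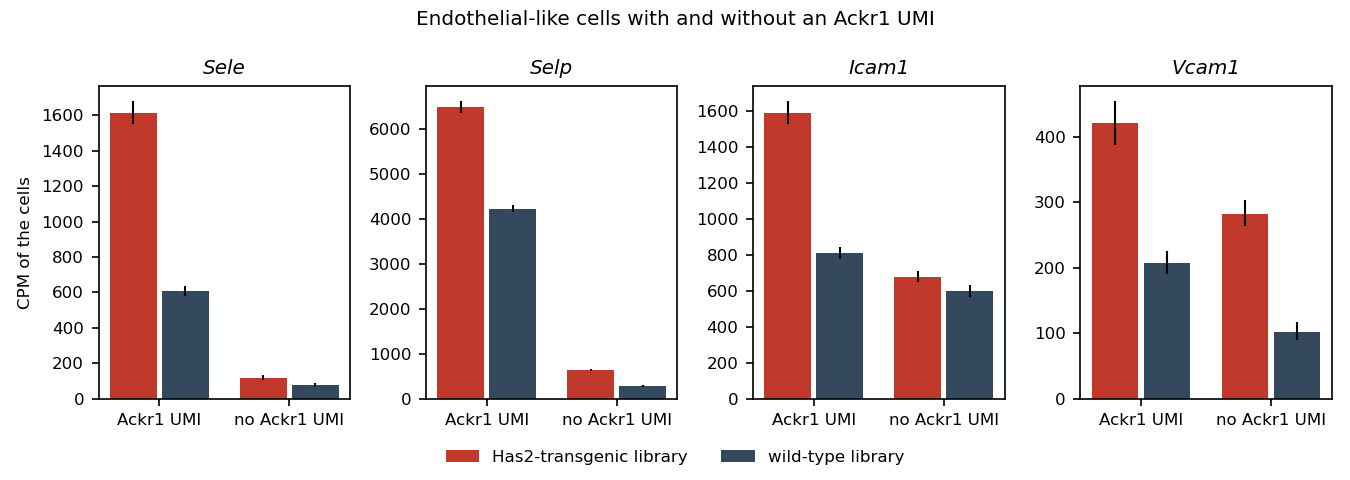
Level of 4 adhesion genes (CPM of the cells, linear axis from 0) in endothelial-like cells with and without an Ackr1 UMI, red for the TG-labelled (Has2-transgenic) library and dark for the WT library. Bars show exact Poisson 95% intervals for counting error. Sele reached 1614 and 608 CPM in cells with an Ackr1 UMI, and 119 and 79.0 CPM in those without.

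The 2 selectins were found in the same cells. Of endothelial-like cells with a Selp UMI, 71.0% had a Sele UMI in the TG-labelled library and 65.2% in the WT library, against 7.56% and 7.51% of cells without Selp. Vcam1 was present with Icam1 in 114 of 118 Vcam1-positive cells of the TG-labelled library and in 92 of 100 in the WT library, and Icam1 was also in 63.8% and 42.2% of cells without Vcam1. After thinning, Icam1 was in 63.4% and 69.6% of cells with Vcam1 and in 44.9% and 31.0% of the rest. Deep cells show more of every gene, but the selectin pair kept its contrast after thinning, with Sele in 50.5% and 38.4% of cells with Selp and in 4.38% and 2.65% of the rest.

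Sele was also counted outside the endothelial-like class. In fibroblast-like cells its 532 and 262 UMIs gave a ratio of 1.66 (1.43 to 1.93), and in the 3 clusters that held at least 50 cells of both libraries it was 2.69 in cluster 21 (2.10 to 3.44), 1.56 in cluster 22 (1.09 to 2.20) and 2.45 in cluster 7, where only 4 and 5 UMIs gave an interval that held 1. Cells with at least 3 Sele UMIs, a limit chosen after the values were seen, numbered 45 and 25 and held 79.5% and 72.9% of the class's Sele. These cells had 1 Pecam1 UMI in each library and 7 and 0 UMIs of Cdh5 (in 11.1% and 0% of cells), both genes of endothelium, and Dcn, a fibroblast matrix gene, in 100% of cells. They also held 211 and 2 UMIs of Selp, in 22.2% and 4.0% of cells, and the part of endothelial RNA in these counts was not tested. By the same limit, every one of the 92 and 55 endothelial-like cells had Pecam1 and Cdh5. Selp in fibroblast-like cells was 1.62 times the WT level (1.33 to 1.98) for the class. A single cell of the TG-labelled library held 34.4% of the UMIs behind it. Cluster 15, with 952 and 20 cells, held 298 of the 308 Selp UMIs of the TG-labelled library. In that cluster Selp was 12.8 CPM, against 122 CPM in the WT library (44 UMIs). In cluster 22 Selp was lower in the TG-labelled library, at 0.229 of the WT level (0.0725 to 0.554), and in clusters 7 and 21, with 1 and 13 UMIs and with 3 and 8 UMIs, the intervals held 1. With the same cluster make-up over clusters 7, 21 and 22 the ratio was 0.260.

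Vcam1 in fibroblast-like cells depended on which clusters were compared. For the class it was 215 CPM in the TG-labelled library and 94.7 CPM in the WT library, a ratio of 2.27 (2.19 to 2.35). In the 3 clusters with at least 50 cells of both libraries it was lower in the TG-labelled library: 33.1 against 85.4 CPM in cluster 21, 15.0 against 27.8 CPM in cluster 7, and 101 against 108 CPM in cluster 22, with intervals of the ratio that reached past 1 in clusters 7 and 22. With the same cluster make-up over these 3 clusters the ratio was 0.638. Most fibroblast-like cells of the TG-labelled library were in 2 other clusters, which held few WT cells. Cluster 15, led by Col3a1 and Col1a1, had 952 and 20 cells, and 305 CPM of Vcam1 in the TG-labelled library. Cluster 18, led by Col1a1 with Tnc and Postn, had 674 and 22 cells, and 219 CPM. Whether these clusters are cell types or a feature of that library cannot be told apart. Icam1 in fibroblast-like cells had a ratio of 1.26 (1.22 to 1.29) for the class and of 1.05 to 1.15 in the 3 shared clusters, with intervals that held 1 in clusters 7 and 22. In clusters 15 and 18, with few WT cells, it was 321 against 133 CPM and 137 against 386 CPM.

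Macrophage/monocyte-like cells carried little Vcam1, and its ratio there was 2.30 (2.03 to 2.60). It was higher in 4 of 5 shared clusters, though the interval held 1 in cluster 4 (0.973 to 2.23) and cluster 0 held 74 and 5 UMIs. In cluster 2, led by Pf4 and C1qa, it was 58.1 CPM against 14.8 CPM, the highest level of the TG-labelled library. In the WT library the highest was in cluster 3, with 27.8 CPM in the TG-labelled library and 19.3 CPM in the WT library. In thinned cells Vcam1 had a UMI in 1.41% and 0.859% of the class. Pericyte-like cells, with 146 and 74 cells, had 134 and 54.3 CPM of Icam1 but 55.3 and 86.1 CPM of Vcam1. Pericyte markers there summed to 6528 and 1473 CPM (7 of 7 higher), fibroblast markers to 16445 and 5334 CPM (8 of 8 higher) and neutrophil markers to 528 and 2561 CPM (8 of 9 lower), and their part in these values was not tested. Itga4 was 48.7 CPM in the pericyte-like cells of the TG-labelled library, against 2.72 CPM in the WT library (3 UMIs).

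In neutrophil-like cells (5404 and 6436 cells), Icam1 was 290 CPM in the TG-labelled library and 149 CPM in the WT library, a ratio of 1.95 (1.85 to 2.05). It was higher in 7 of 7 clusters, by 1.04-fold to 1.87-fold, though the intervals held 1 in clusters 10 and 14. Its level varied more between clusters than between libraries, with 515 and 403 CPM in cluster 13 and 41.8 and 35.2 CPM in cluster 14. When both libraries were given the same cluster make-up, the ratio was 1.46, under the threshold. Selplg was 0.786 of the WT level (0.749 to 0.824) and lower in 6 of 7 clusters, though the intervals held 1 in clusters 10, 11 and 13.

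Of the beta2 integrin chains, Itgam was lower and Itgax higher in neutrophil-like cells of the TG-labelled library. Itgam, which makes Mac-1, was 578 against 1007 CPM, a ratio of 0.574 (0.558 to 0.590), and it was lower in 7 of 7 clusters (0.572 to 0.824). Itgax, whose product also binds complement fragments, was 165 against 57.7 CPM, a ratio of 2.86 (2.66 to 3.08), and higher in 7 of 7 clusters (1.66 to 3.99). Their shared beta chain Itgb2 was 524 against 566 CPM, a ratio of 0.926 (0.897 to 0.955). Itgal was 81.5 against 87.5 CPM, with an interval of the ratio from 0.860 to 1.01. In cells thinned to 1000 UMIs, Itgam had a UMI in 38.7% and 57.2% of cells and Itgax in 14.0% and 5.01%, whereas unthinned shares were 59.5% and 81.9%, and 25.2% and 13.4%. The neutrophil markers used to name the class summed to 124950 and 181442 CPM (4 of 9 higher, 5 lower), and their part in these ratios was not tested.

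The alpha chains can be set against each other as shares of their summed UMIs (Itgam, Itgax, Itgal and Itgad). A UMI counts a captured molecule, and capture may differ between genes, so only the difference of a share between libraries is described. In neutrophil-like cells Itgam made up 69.9% of alpha-chain UMIs in the TG-labelled library and 87.2% in the WT library. Itgax made up 19.97% and 4.997%, and Itgal 9.87% and 7.58%. The alpha UMIs together were 1.58 and 2.04 times the Itgb2 UMIs. In dendritic-like cells the shares differed in the other direction, with Itgam at 56.6% and 46.4% and Itgax at 36.7% and 48.7%.

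**Figure D4:**
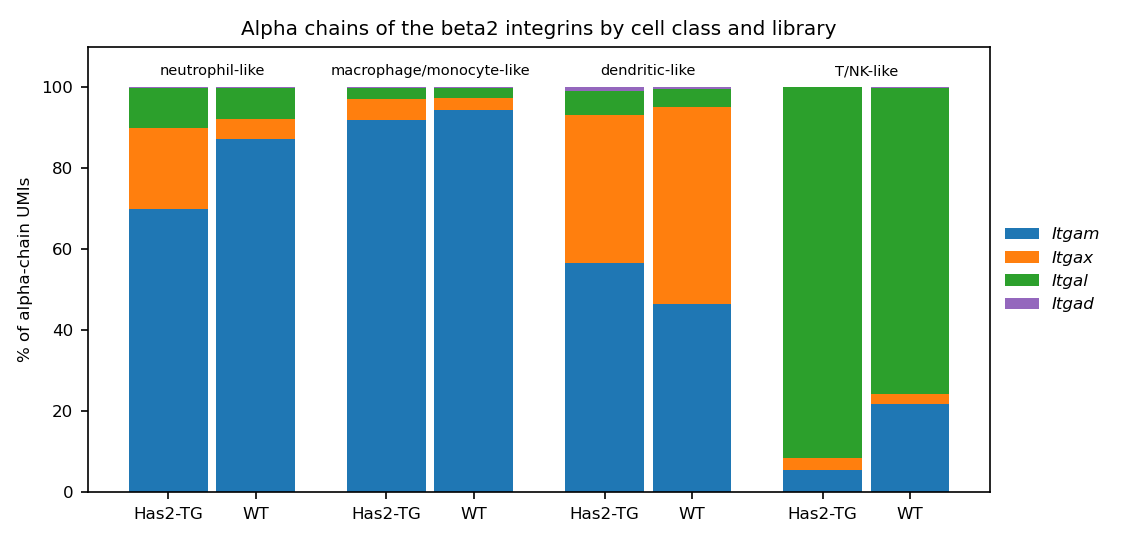
Share of the UMIs of the beta2 integrin alpha chains that each chain made up (% of alpha-chain UMIs), by cell class, TG-labelled (Has2-TG) library at left and WT library at right in each pair. In neutrophil-like cells Itgax made up 19.97% and 4.997%, and Itgam 69.9% and 87.2%.

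In macrophage/monocyte-like cells (4688 and 5315 cells) Itgam was again lower, at 444 against 712 CPM, a ratio of 0.624 (0.613 to 0.636), and it was lower in 5 of 5 shared clusters (0.697 to 0.736). With the same cluster make-up in both libraries the ratio was 0.710, which is not past the threshold. Itgb2 was 471 against 467 CPM, with an interval from 0.988 to 1.03. Itgax was 25.1 against 22.2 CPM, a ratio of 1.13, higher in 3 of 5 clusters. Itgal was 14.0 against 19.7 CPM, a ratio of 0.710 (0.636 to 0.791), but it was higher in 3 of 5 clusters, by 3.37-fold in cluster 3 (1.74 to 7.31), and with the same cluster make-up the ratio was 0.877. Another cluster, led by the bone-resorption genes Ctsk and Acp5, held 153 cells of the TG-labelled library and 3 of the WT library, with 104 CPM of Itgam in the TG-labelled library. Neutrophil markers in this class summed to 473 and 1020 CPM, with 9 of 9 lower in the TG-labelled library, and their part in the Itgam difference was not tested.

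**Figure D5:**
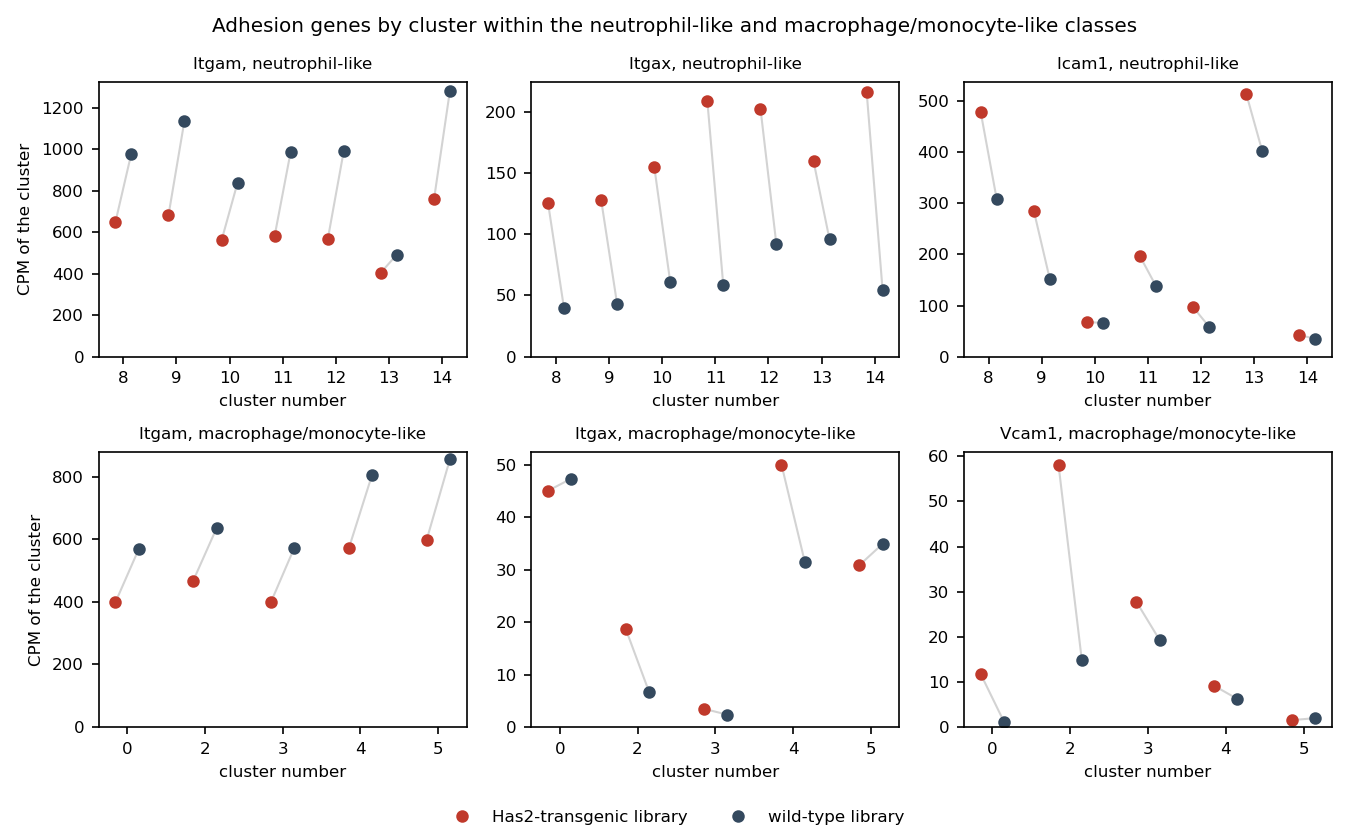
Level of adhesion genes (CPM of the cluster, linear axes from 0) in each neutrophil-like cluster (top) and macrophage/monocyte-like cluster (bottom) with at least 50 cells of both libraries, red for the TG-labelled (Has2-transgenic) library at left of each pair and dark for the WT library. Itgam was lower in the TG-labelled library in 7 of 7 and 5 of 5 clusters, and Itgax was higher in 7 of 7 neutrophil-like clusters.

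Integrin counts in other classes were low and are given beside the leukocyte markers there. In fibroblast-like cells Itgam was 7.09 and 12.9 CPM, a ratio of 0.550. It was higher in 2 of 3 shared clusters, with 1.48 in cluster 22 (1.15 to 1.88) and 0.525 in cluster 21 (0.392 to 0.693), and with the same cluster make-up the ratio was 1.06. Neutrophil markers in this class summed to 442 and 935 CPM, with 9 of 9 lower in the TG-labelled library. In T/NK-like cells Itgam was 12.1 CPM (7 UMIs) and 74.1 CPM (92 UMIs), neutrophil markers summed to 565 and 2245 CPM (7 of 9 lower) and macrophage markers to 44.8 and 135 CPM (9 of 9 lower, with 4 and 0 at 0). There 1 cell held 32.6% of the Itgam UMIs of the WT library. The part of these markers was not tested. In endothelial-like cells Itgb2, the only leukocyte chain past the threshold there, had 72 and 54 UMIs, while macrophage markers summed to 66.9 and 43.2 CPM (6 of 9 higher) and neutrophil markers to 826 and 1262 CPM (6 of 9 lower). Their part was not tested.

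Itga4, the alpha chain that binds Vcam1, was 25.1 against 21.1 CPM in macrophage/monocyte-like cells, a ratio of 1.19 (1.09 to 1.30). It was higher in only 2 of the 5 shared clusters, and with the same cluster make-up the ratio was 1.01. In neutrophil-like cells it was low, with 120 and 109 UMIs, but its ratio was 1.94 (1.49 to 2.54) and it was higher in 6 of 7 clusters, several with few UMIs (7 and 4 in cluster 9, 5 and 6 in cluster 11). The interval left out 1 only in cluster 12 (1.17 to 4.22). Within the dendritic-like class, cells led by migratory markers (51 and 183 cells) held most of it, at 370 and 406 CPM. Cells led by conventional dendritic markers (33 and 110 cells) had 20.6 and 21.7 CPM. The class ratio of 0.830 (0.712 to 0.964) was closer to 1 in migratory-marker cells, at 0.910 (0.770 to 1.07), and the conventional-marker cells had too few UMIs to compare.

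Plasmacytoid-marker cells (14 and 27) had the highest Selplg of the dendritic subsets, at 1333 and 1008 CPM. Itgax stood at 137 and 169 CPM in conventional-marker cells and at 74.4 and 90.2 CPM in migratory-marker cells. In T/NK-like cells (164 and 292) the integrin chains also divided by subset. Itgal was 267 and 303 CPM in cells with a UMI of Trdc, a gamma-delta receptor gene, and 107 and 114 CPM in cells with a UMI of Foxp3, the regulatory T-cell factor. Itga4 was highest in cells with neither, at 224 and 244 CPM. The subsets differed in number between the libraries, with 46 and 26 Foxp3-positive and 46 and 136 Trdc-positive cells. The class ratio of Itgal, 0.796 (0.638 to 0.986), was 0.881 in the Trdc-positive cells and 1.02 in cells with neither, with intervals that held 1, and the Foxp3-positive cells had too few UMIs to compare.

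The other genes of the adhesion pathway were taken as 6 lists with 57 genes, compared by the same threshold. Of all measured genes, 12.9% were higher and 5.96% lower in endothelial-like cells. In neutrophil-like cells the shares were 13.4% and 11.2%, and in T/NK-like cells 6.84% and 9.73%. The counts below rest on few genes beside these shares and say nothing particular about a list. Of enzymes that build selectin ligands, 2 of 9 measured were higher and 1 lower in endothelial-like cells, and 1 of 5 was higher and 0 lower in neutrophil-like cells. Tpst2, a tyrosine sulphotransferase that modifies PSGL-1, was 256 CPM in neutrophil-like cells of the TG-labelled library and 101 CPM in those of the WT library, a ratio of 2.55 (2.41 to 2.70). St3gal4, a sialyltransferase needed for selectin binding, was 160 and 216 CPM there, a ratio of 0.741. Gcnt1, which starts the core structure of these sugars, was 118 and 155 CPM.

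Of 6 measured other selectins and ligands, 1 was higher and 0 lower in endothelial-like cells. Glycam1, a mucin-like selectin ligand, was 103.4 CPM in the TG-labelled library and 22.7 CPM in the WT library, a ratio of 4.56 (3.70 to 5.65). In neutrophil-like cells 0 of 5 measured genes of the list were past the threshold. Cd44, the hyaluronan receptor and a selectin ligand, was 1416 and 2005 CPM in macrophage/monocyte-like cells, a ratio of 0.706, and 772 and 1256 CPM in T/NK-like cells, a ratio of 0.614.

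Of junction and transmigration genes, 2 of 10 measured were higher and 0 lower in endothelial-like cells. Plvap, a component of endothelial diaphragms, was 1681 and 965 CPM, a ratio of 1.74, and Cd47 was 318 and 201 CPM, a ratio of 1.59. Icam2, another ligand of LFA-1, was 147 and 151 CPM there. Of 3 measured genes of Weibel-Palade bodies and platelets, the granules that also store Selp, 2 were higher: Vwf (ratio 1.70) and Angpt2, at 371 and 239 CPM (1.55).

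Other integrins had 1 of 8 higher and 1 lower in endothelial-like cells, 0 of 5 higher and 1 lower in neutrophil-like cells, and 2 of 5 higher and 0 lower in T/NK-like cells. Those 2 make the E-cadherin receptor of skin T cells, Itgae at 386 and 213 CPM and Itgb7 at 253 and 141 CPM, with ratios of 1.81 and 1.80. Itga1, a collagen-binding chain, was 45.4 and 112 CPM in macrophage/monocyte-like cells, a ratio of 0.405. Of 11 measured genes of integrin activation, 0 were higher and 1 lower in neutrophil-like cells. There Rassf5, which carries the Rap1 signal to LFA-1, was 18.3 and 35.1 CPM (0.522), and Tln1, which encodes talin, was 191 and 267 CPM (0.714).

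The genes whose pattern was most like each member were ranked by Pearson's r of log2(CPM + 10) over 22 values, 11 classes in 2 libraries, among 11412 genes. The points share libraries, depth and the marker-based classes, and r is a description only. Sele was most like Ptprb (r = 0.991), Shank3 and Gpihbp1, and Selp most like Emcn (0.958), Cldn5 and Sox17. Selplg was nearest Arhgap30 (0.966), Itgam nearest Ccr1 (0.967), Itgax nearest Pira13 (0.975) and Itgb2 nearest Ncf4 (0.962). Itgal was nearest Dgat1 (0.947) and Itga4 nearest Gpr183 (0.898). Vcam1 was most like Peg3 (0.956), and Icam1, the broadest of the genes, had the lowest best match, Jam2 at 0.822.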

How the data were processed

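Each deposited matrix gives raw counts of UMIs by gene and barcode, made by the authors with Cell Ranger 9.0.1 on build GRCm39, per the submitters' processing notes. Libraries came from dissociated skin by a droplet method that reads transcripts from the 5′ end, per the labels' protocols. The labels name polyA RNA for the TG sample and total RNA for the WT sample. The treatment label begins mid-sentence, so an earlier step may be missing.

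Barcodes under 200 genes, or with over 15% of UMIs from mitochondrial genes, were left out. Scrublet marked 0% of barcodes as doublets, so the expected share with the highest scores (5.85% and 6.80%) was removed, 855 and 1156 barcodes. Counts were scaled to 10000 per cell, and 3000 variable genes, without the 10 members and the other pathway genes, gave 30 principal components, 15 neighbours and, by Leiden at resolution 1, 27 clusters (scanpy 1.11.5, igraph 0.11.9). A cluster took the name of the set with most markers at 2 times the median cluster's CPM and in 10% of its cells, with at least 3. A cluster of 78 WT cells stayed unnamed.

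UMIs were summed per library and class. CPM have exact Poisson intervals, ratios exact conditional (Clopper-Pearson) intervals and shares exact binomial intervals (scipy 1.17.1). They cover counting error only, and understate it where 1 cell holds many UMIs. Their code was tested on simulated counts. Log2 ratios had 0.5 count added. Thinning to 1000 UMIs left out 718 and 1065 cells. Named genes are the members, up to 2 genes each way of each list and class by ratio among those with at least 100 UMIs, the 3 most alike genes of each member (with at least 500 UMIs) and markers; the text gives a part of these. The members, lists and motifs were chosen with earlier results of these data known. Alternatives are given at the end.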

Additional observations from a re-analysis of the deposited data

Results flagged for a closer look

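Of the 10 genes, 5 differed in direction between cell classes, each with an interval that left out 1 on either side, and the difference between classes was not itself tested. The share of all genes that meet this rule was not counted, so the 5 say nothing particular about the set. Itgam had ratios (TG-labelled over WT library) of 0.574 in neutrophil-like, 0.624 in macrophage/monocyte-like, 0.550 in fibroblast-like and 0.163 in T/NK-like cells, against 1.27 in dendritic-like cells. Of the dendritic subsets, its interval left out 1 only in conventional-marker cells (1.46, 1.06 to 1.99). Itgax was 2.86 in neutrophil-like, 1.13 in macrophage/monocyte-like and 1.82 in fibroblast-like cells, against 0.785 in dendritic-like cells. By dendritic subset it was 0.812 in conventional-marker, 0.825 in migratory-marker and 0.749 in plasmacytoid-marker cells, with intervals that held 1. In dendritic-like cells led by none of these marker sets it was 0.667 (0.453 to 0.963). For Selplg the ratio was 0.786 in neutrophil-like and 0.584 in fibroblast-like cells, against 1.11 in dendritic-like and 1.20 in T/NK-like cells. By dendritic subset Selplg was 0.968 in migratory-marker cells and 0.952 in cells led by no set, with intervals that held 1. It was 1.32 in conventional-marker and 1.32 in plasmacytoid-marker cells, with intervals above 1. Itga4 was 1.94 in neutrophil-like and 1.19 in macrophage/monocyte-like cells, against 0.830 in dendritic-like and 0.702 in fibroblast-like cells. Its interval held 1 in every dendritic subset. With equal cluster make-up the fibroblast-like ratios of Itgam, Selplg and Itga4 were 1.06, 1.09 and 1.80, but single clusters differed in direction. Itgam was 1.48 in cluster 22 and 0.525 in cluster 21. Selplg was above 1 only in cluster 7, on 6 and 12 UMIs with an interval that held 1. It was 0.557 in cluster 21, with an interval below 1, and 0.693 in cluster 22. Itga4 had 1 and 1 UMIs in cluster 7 and a ratio of 0.235 in cluster 21, with intervals that held 1. In cluster 22 Itga4 was 1.84 (1.18 to 2.80). Itgb2 was 1.52 in endothelial-like cells, on 72 and 54 UMIs, and 0.926 in neutrophil-like cells.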

How the results depend on the processing

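No paired analysis was possible because each genotype has 1 library. The 10 leading ratios (each gene in the class that leads the report on it) were recomputed under up to 13 other settings. Every one kept its side of 1 except Itga4 in macrophage/monocyte-like cells, which was 1.19 and became 0.799 at Leiden resolution 0.5, where no separate dendritic-like class formed and Itgax there has no value; it was 1.03 in thinned cells and 1.01 with equal cluster make-up. In endothelial-like cells Sele, Selp, Icam1 and Vcam1 were 3.01, 2.10, 1.65 and 2.49 as means of per-cell CPM, and 3.67, 2.15, 1.496 and 2.79 in thinned cells. Without lymphatic-marker cells they were 1.92, 1.19, 1.45 and 2.30. With an Ackr1 UMI, Sele, Selp and Icam1 were 2.65, 1.54 and 1.96. At Leiden resolution 2.0 Sele, Selp and Vcam1 were 1.90, 1.18 and 2.29, and under a per-cell marker gate Sele, Selp and Icam1 were 2.02, 1.20 and 1.31. Without doublet removal Selp was 1.13 and Vcam1 1.44, under the threshold. With abundant genes left out of totals, Selp was 1.03, Itgam 0.550 and Itgb2 0.888 in their leading classes. In neutrophil-like cells Selplg was 0.829 thinned and 0.861 with equal cluster make-up, and Itgam 0.630 with the latter. Vcam1 in fibroblast-like cells reversed, to 0.638, with equal cluster make-up, over 3 clusters. Among 8 further ratios, only that one and Itgb2 in macrophage/monocyte-like cells (1.01, and 0.959 when divided by the median ratio of all genes) left their side of 1. The lymphatic, Ackr1 and cluster make-up settings were chosen after seeing the data. The cause of these moves was not tested, beyond what the cells left out or reweighted show. The number of pairs past the threshold, 17, ranged from 13 to 21. Counts under 50 UMIs limit several ratios within clusters and subsets.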
